A study of Mus musculus with 14 samples.

Results

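Rbbp5, Ash2l, Wdr5 and Dpy30 encode the 4 subunits of WRAD, the core module shared by the enzymes that methylate lysine 4 of histone H3 (H3K4). These genes were taken by symbol, as 4 of the 24411 genes in the count files, and all 4 passed the filter on low counts that left 9644 genes tested. The enzymes of the KMT2 and SETD1 families have little activity alone. RBBP5 and ASH2L together hold the catalytic SET domain in its active form, WDR5 bridges the enzyme to RBBP5, and DPY30 binds ASH2L. H3K4 methylation marks promoters and enhancers in liver as in other tissues, and one of the subunits, Rbbp5, is the gene deleted in this study.

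RNA was measured in whole liver of male littermates aged 5 to 7 months, all carrying floxed alleles of Rbbp5 on both chromosomes. Control mice (WT) had no Alb-Cre transgene, and knockout mice (LKO, spelled RRBP5 LKO in the sample titles) carried 1 copy of it, so that recombination is driven by the albumin promoter. This promoter is active in hepatocytes and in the hepatoblasts from which hepatocytes and bile duct cells both arise, while liver cells of other lineages, such as Kupffer, endothelial and stellate cells, keep their floxed alleles. Mice of each genotype were injected in the abdomen between 9 and 10 in the morning with tunicamycin at 0.05 mg/kg, which blocks the first step of N-glycan synthesis and so loads the endoplasmic reticulum with unfolded protein, in 500 µl of 3% DMSO in PBS, or with that vehicle alone. Livers were taken 8 h later. The groups were WT vehicle (3 libraries), WT tunicamycin (3), LKO vehicle (4) and LKO tunicamycin (4). The labels give no strain, do not say which exon of Rbbp5 is floxed, and name no mouse for each library, so p-values measure the spread between these samples.

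Sense-strand reads on genes numbered from 6507018 to 13519421 per library, of which 72.5 to 75.5% lay on the ribosomal RNA gene Rn45s. LKO vehicle libraries 3 and 4 differed by no more than counting noise (chi-square per gene 1.12, against 3.38 to 25.9 in the 17 other pairs of replicates), and their reads were summed as 1 sample, named LKO vehicle 3 below, which left 13 samples. Hepatocyte markers (Alb, Apoa1, Ttr, Hnf4a, Cps1, Asgr1 and Serpina1c) summed to between 13184 and 22980 CPM, a gene's reads scaled to a common library size by TMM. The same sums were 37.9 to 118 CPM for 8 Kupffer cell and macrophage markers and 69.4 to 102 CPM for 8 markers of sinusoidal endothelium.

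The 4 subunit genes were sparsely covered. The 14 libraries held 432 reads of Rbbp5, 441 of Ash2l, 525 of Wdr5 and 523 of Dpy30 in all, and single libraries held between 18 and 67 reads of any of them. Between 37.2% and 43.6% of the tested genes had a lower mean log2 CPM than each of the 4. Reads on the opposite strand totalled 5 for Rbbp5, 13 for Ash2l, 4 for Wdr5 and 1 for Dpy30.

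Rbbp5, the WRAD subunit that contacts both the enzyme and the nucleosome, was the deleted gene and the only 1 of the 4 whose level differed between genotypes past the test. Averaged over both treatments it was lower in LKO liver, at 54.9% of the WT mean CPM, and in the separate treatments the fitted decrease was of like size. WT vehicle samples 1 to 3 held 34, 50 and 35 reads of Rbbp5, or 4.07, 6.41 and 5.10 CPM. WT tunicamycin samples 1 to 3 held 39, 31 and 37 reads, or 5.37, 5.03 and 5.71 CPM. In the LKO vehicle samples 1 to 3 there were 35, 26 and 47 reads, or 4.15, 1.90 and 2.79 CPM. The LKO tunicamycin samples 1 to 4 had 21, 24, 34 and 19 reads, or 2.80, 3.12, 3.46 and 2.06 CPM. LKO vehicle 1 lay just above WT vehicle 1, so 6 of the 7 LKO samples were below every WT sample. Within tunicamycin the genotypes did not overlap, as was also so, in the direction of lower LKO values, for 6.58% of all tested genes.

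The mean level of Rbbp5 was 5.28 ± 0.777 CPM (SD, n = 6) in WT and 2.90 ± 0.780 CPM (SD, n = 7) in LKO liver. Over both treatments the log2 fold change, LKO against WT, was -0.89 ± 0.18 (SE), with a 95% interval from -1.27 to -0.50 and an adjusted p of 0.0181 (edgeR quasi-likelihood test, Benjamini-Hochberg over all tested genes). This is a fold of 0.541 (95% interval 0.415 to 0.705). In that comparison 213 genes were called at an adjusted p under 0.05, 2.21% of those tested, and 0.861% were called lower. With vehicle the difference was -0.87 ± 0.26 (interval -1.41 to -0.33), with an edgeR adjusted p of 0.330 where 0.0415% of genes were called. After tunicamycin it was -0.90 ± 0.25 (interval -1.44 to -0.37), with an edgeR adjusted p of 0.105 where 0.861% of genes were called. Of these 3 comparisons the difference of Rbbp5 passed the threshold in that over both treatments, and with no filter on low counts also after tunicamycin alone (-0.91, edgeR adjusted p 0.0333). The call was lost without WT vehicle 2, the highest sample, where the value was -0.79 and the edgeR adjusted p 0.0650, and with the deposited FPKM in place of counts (limma adjusted p from 0.0637 to 0.101).

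**Figure D1:**
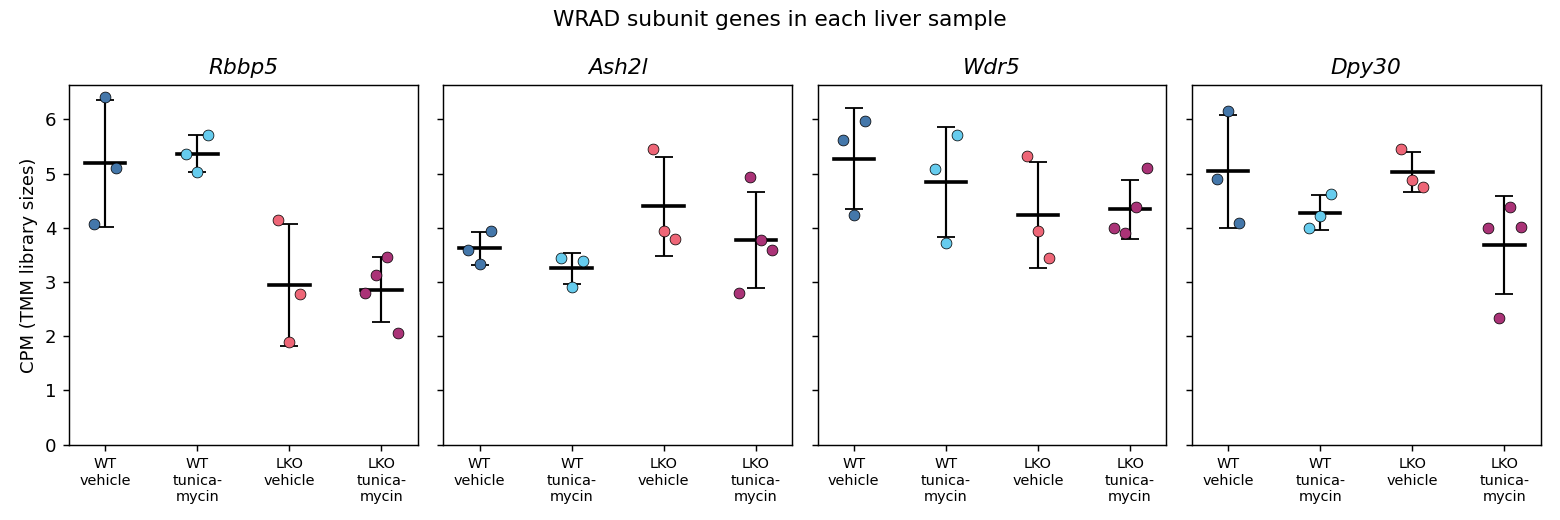
CPM of Rbbp5, Ash2l, Wdr5 and Dpy30 (vertical axis, reads scaled to TMM library sizes) in the 4 groups; each point is 1 sample, the wide line is the group mean and the bars are 1 SD. Rbbp5 lies between 4.07 and 6.41 in the 6 WT samples and between 1.90 and 4.15 in the 7 LKO samples, while the genotypes overlap for the other 3 genes.

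Reads of Rbbp5 in LKO liver ranged from 19 to 47 per sample and none was without them. In whole liver, fewer cells that carry the RNA and less RNA per cell cannot be told apart, and reads from any Rbbp5 exon that recombination leaves in place are still counted. How much of the remaining level comes from other cell types was not tested. Markers of cells other than hepatocytes, read beside it, moved in part with genotype. Of all tested genes, 1.35% were called higher and 0.861% lower in LKO against WT over both treatments. Over both treatments, 4 of 7 tested stellate cell markers were called higher in LKO liver (Col1a1 by 1.88, Col1a2 by 1.67, Col3a1 by 1.37 and Pdgfrb by 1.10 on the log2 scale), as was 1 of 2 tested bile duct markers, Spp1, by 1.79. The stellate markers Dcn, Lrat and Reln gave 0.31, 0.20 and 0.36 and were not called (edgeR adjusted p 0.198, 0.735 and 0.207). Summed stellate markers were 65.9 to 108 CPM in WT vehicle, 92.5 to 131 in WT tunicamycin, 119 to 163 in LKO vehicle and 109 to 177 in LKO tunicamycin samples. The same sums for bile duct markers were 8.60 to 11.7, 8.49 to 42.5, 17.4 to 55.2 and 35.8 to 111 CPM. Spp1 alone, at a mean of 32.2 CPM, made up most of the bile duct level. Sox9 had a mean of 3.89 CPM, and Epcam, Krt19 and Krt7 had at most 0.274 CPM. Sox9, LKO against WT, gave 0.15 over both treatments (edgeR adjusted p 0.809) and -0.23 after tunicamycin. Each stellate, bile duct, Kupffer and endothelial marker had reads in at least 1 sample of every group. None of the 8 Kupffer or 8 endothelial markers was called, nor the 1 lymphocyte marker that could be tested, and 2 of 7 hepatocyte markers, Hnf4a and Serpina1c, were called lower by -0.34 and -0.43 (edgeR adjusted p 0.0475 and 0.0481). These marker calls depended on single samples. The hepatocyte count fell below 2 in 12 of 13 fits that each dropped a sample, and Spp1 was lost without WT vehicle 1, 2 or 3 or LKO vehicle 2, and by each FPKM fit. The stellate count fell to 2 without WT vehicle 1 or 2, and to 0 by unfiltered FPKM, while 1 Kupffer marker was called without LKO tunicamycin 1 and with no filter on low counts.

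Genes next to Rbbp5 on the chromosome were examined with it. Rbbp5 spans chr1:132477365-132505659 on the plus strand of mm10, with 14 exons in its principal GENCODE M21 transcript. Of the 3 nearest genes on either side that are in the count files, Nuak2 and Dstyk could be tested. Over both treatments, LKO against WT, they gave 0.02 and 0.16 on the log2 scale, with edgeR adjusted p-values of 0.985 and 0.686. Tmcc2, Tmem81, Cntn2 and Nfasc had at most 12, 3, 1 and 5 reads in any sample and were not tested.

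Ash2l, the partner with which RBBP5 forms a dimer, had fitted values above 0 in LKO against WT under either treatment, and the test was not passed. WT vehicle samples 1 to 3 held 30, 26 and 27 reads, or 3.59, 3.33 and 3.94 CPM, and WT tunicamycin samples 1 to 3 held 25, 18 and 22 reads, or 3.44, 2.92 and 3.40 CPM. LKO vehicle samples 1 to 3 had 46, 54 and 64 reads, or 5.45, 3.94 and 3.80 CPM, and LKO tunicamycin samples 1 to 4 had 21, 38, 37 and 33 reads, or 2.80, 4.94, 3.77 and 3.58 CPM. The LKO samples spread more widely than the WT samples, reached higher, and also held the lowest value of all. Means were 3.44 ± 0.333 CPM (SD, n = 6) in WT and 4.04 ± 0.885 CPM (SD, n = 7) in LKO liver. The log2 fold change over both treatments was 0.23 ± 0.15 (interval -0.10 to 0.56, edgeR adjusted p 0.455). Ash2l lies at chr8:25815996-25847694 on the minus strand, and its principal transcript has 16 exons.

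Wdr5, the scaffold that also serves in complexes other than the H3K4 methyltransferases, was at 5.63, 4.23 and 5.98 CPM in WT vehicle samples 1 to 3 and at 5.09, 3.73 and 5.71 CPM in WT tunicamycin samples 1 to 3. It was at 5.33, 3.94 and 3.44 CPM in LKO vehicle samples 1 to 3 and at 3.997, 3.90, 4.38 and 5.10 CPM in LKO tunicamycin samples 1 to 4. The genotypes overlapped under each treatment, and 1 of 7 LKO samples was below every WT sample. The log2 fold change over both treatments, LKO against WT, was -0.25 ± 0.15 (interval -0.57 to 0.06, edgeR adjusted p 0.386). Wdr5 lies at chr2:27515157-27536535 on the plus strand, and its principal transcript has 14 exons.

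Dpy30, the small subunit that binds ASH2L, was at 4.91, 6.15 and 4.08 CPM in WT vehicle samples 1 to 3 and at 3.99, 4.22 and 4.63 CPM in WT tunicamycin samples 1 to 3. It was at 5.45, 4.89 and 4.75 CPM in LKO vehicle samples 1 to 3 and at 3.997, 2.34, 4.38 and 4.02 CPM in LKO tunicamycin samples 1 to 4. LKO tunicamycin 2, with 18 reads, was the lowest sample. The log2 fold change over both treatments, LKO against WT, was -0.11 ± 0.15 (interval -0.42 to 0.20, edgeR adjusted p 0.748). Dpy30 lies at chr17:74299474-74323944 on the minus strand, and its principal transcript has 5 exons and 789 bases, against 2856 to 3307 bases for the other 3.

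The intervals bound what these samples could have missed. Over both treatments, LKO against WT, the fold of Ash2l lay between 0.936 and 1.47, that of Wdr5 between 0.676 and 1.04, and that of Dpy30 between 0.746 and 1.15. None of these 3 intervals reached the fitted fold of Rbbp5, 0.541, but that of Wdr5 overlapped the interval of Rbbp5, 0.415 to 0.705. The difference between the change of Rbbp5 and that of each partner was not tested across samples.

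**Figure D2:**
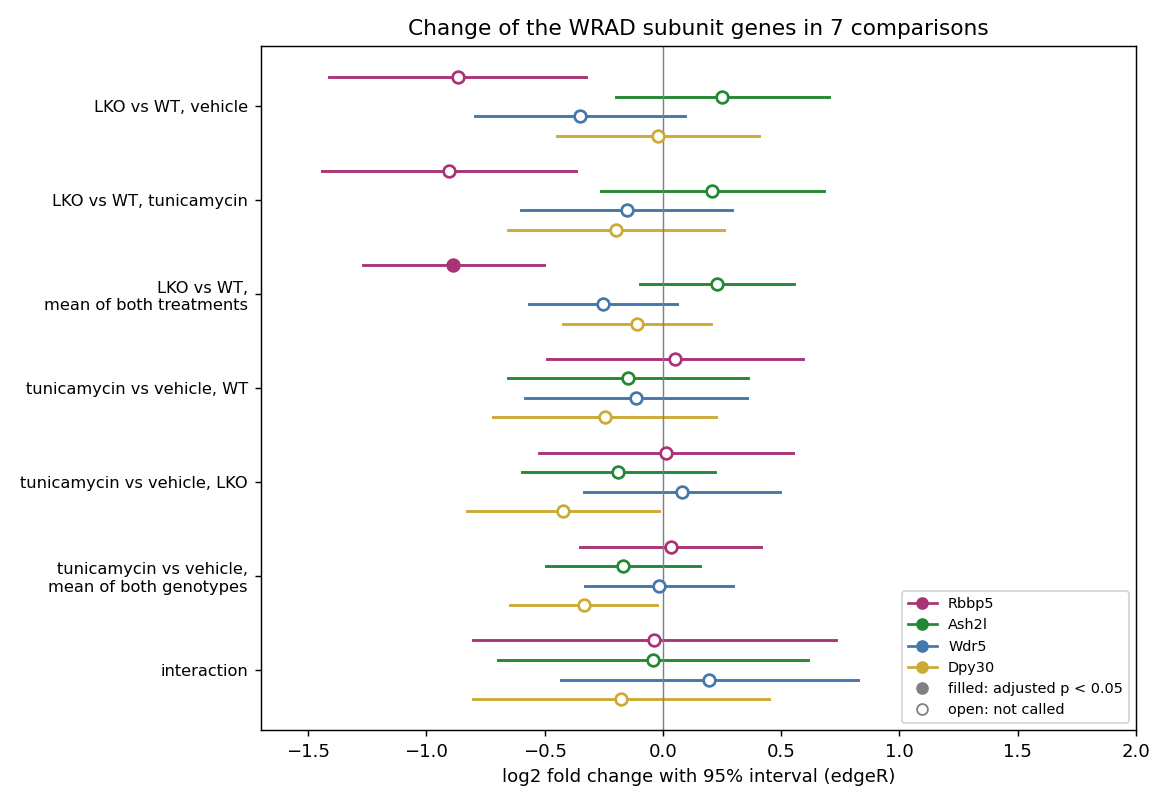
Log2 fold change (horizontal axis) with its 95% interval for the 4 genes in 7 comparisons, from 1 edgeR fit of 13 samples; filled points have an adjusted p under 0.05. The 1 filled point is Rbbp5 in LKO against WT over both treatments, at -0.89, and the Rbbp5 intervals under vehicle and under tunicamycin lie at nearly the same place.

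The balance of the 4 genes within a library does not depend on how library sizes are scaled. Rbbp5 made up 22.4, 31.8 and 26.7% of the reads on the 4 genes in WT vehicle samples 1 to 3 and 30, 31.6 and 29.4% in WT tunicamycin samples 1 to 3. It made up 20.3, 12.9 and 18.9% in LKO vehicle samples 1 to 3 and 20.6, 21.8, 21.7 and 13.97% in LKO tunicamycin samples 1 to 4. All 7 LKO samples were below all 6 WT samples, though the margin between the nearest, 21.8% and 22.4%, is far within the counting error of either. Exact Clopper-Pearson 95% intervals ran from 14.5 to 30.7% for LKO tunicamycin 2 and from 16.0 to 29.8% for WT vehicle 1, and cover counting error only. The mean share was 28.7 ± 3.60% (SD, n = 6) in WT and 18.6 ± 3.66% (SD, n = 7) in LKO liver.

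Shares of a fixed whole move against each other, so a lower share of Rbbp5 raises those of the others. The share of Ash2l was 18.7 ± 1.498% (SD, n = 6) in WT and 26.0 ± 4.33% (SD, n = 7) in LKO liver, with 6 of 7 LKO samples above every WT sample. With Rbbp5 left out, Ash2l took 24.3 to 28.1% of the reads on the 3 partners in WT samples and 25.9 to 44.2% in LKO samples, with 6 of 7 above every WT sample. One of these 6, LKO tunicamycin 4, was at 28.2% (exact Clopper-Pearson 95% interval 20.3 to 37.3%) against 28.1% (19.4 to 38.2%) in WT vehicle 3, so these 2 samples differ by far less than counting error. By CPM, 3 of 7 LKO samples were above every WT sample. The mean of this share was 26.2 ± 1.56% (SD, n = 6) in WT and 32.1 ± 5.88% (SD, n = 7) in LKO liver, and the highest value was that of LKO tunicamycin 2, the sample low in Dpy30. Wdr5 took 38.3 ± 4.68% in WT and 34.2 ± 3.83% in LKO samples on that scale, and Dpy30 35.5 ± 5.58% and 33.7 ± 6.27% (SD, n = 6 and 7), with the genotypes overlapping for both.

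**Figure D3:**
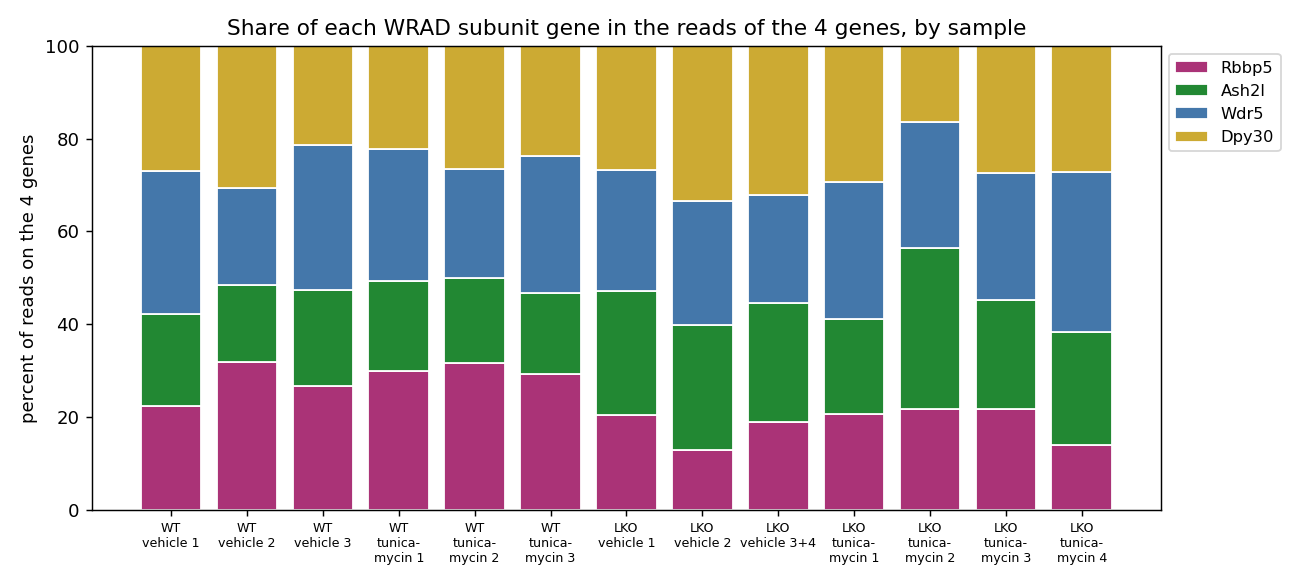
Percent of the reads on the 4 WRAD genes that fell on each gene (vertical axis), 1 bar per sample; LKO vehicle 3 holds the summed reads of libraries 3 and 4. The Rbbp5 segment is 22.4 to 31.8% in the 6 WT bars and 12.9 to 21.8% in the 7 LKO bars.

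Levels of different genes were compared in the deposited FPKM, which scale fragments by transcript length. Dpy30 was the highest of the 4 in all 13 samples, at 3.13 ± 0.794 FPKM (SD, n = 6) in WT and 2.71 ± 0.890 FPKM (SD, n = 7) in LKO liver. Wdr5 was at 0.640 ± 0.119 and 0.573 ± 0.120 FPKM, Rbbp5 at 0.574 ± 0.118 and 0.318 ± 0.0875 FPKM, and Ash2l at 0.347 ± 0.0688 and 0.427 ± 0.0909 FPKM in WT (n = 6) and LKO liver (n = 7), with SD. In WT liver Ash2l was the lowest in 6 of 6 samples and Wdr5 exceeded Rbbp5 in 4 of 6, so Wdr5 and Rbbp5 did not differ beyond their spread. In LKO liver Rbbp5 was the lowest in 5 of 7 samples and Ash2l in 2 of 7, and Wdr5 exceeded Rbbp5 in 7 of 7. Set against Rbbp5 as 1, mean FPKM of Ash2l, Wdr5 and Dpy30 were 0.603, 1.11 and 5.44 in WT and 1.34, 1.80 and 8.54 in LKO liver. These ratios are rough, since the transcript lengths behind the FPKM are not given. The near-duplicate LKO vehicle libraries 3 and 4, averaged here, had Dpy30 at 1.98 and 4.33 FPKM from 31 and 49 reads.

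On the FPKM scale the vehicle samples of the 2 genotypes did not overlap for Rbbp5, by a margin of 0.437 to 0.447 FPKM, and 4.22% of tested genes likewise had every LKO vehicle sample below every WT vehicle sample in FPKM. The WT vehicle samples were at 0.447, 0.720 and 0.628 FPKM and the LKO vehicle samples at 0.437, 0.189 and 0.326 FPKM. Rbbp5 was at 0.668, 0.434 and 0.549 FPKM in WT tunicamycin and at 0.325, 0.278, 0.415 and 0.254 FPKM in LKO tunicamycin samples. LKO vehicle 1 and WT tunicamycin 2 were the nearest samples of opposite genotype and lay in the reverse order.

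**Figure D4:**
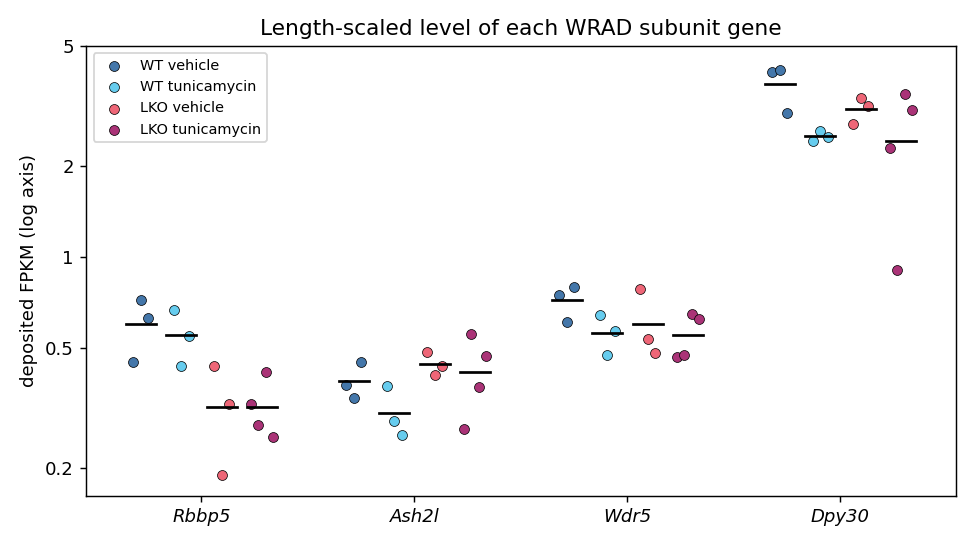
Deposited FPKM of the 4 genes (vertical axis, log scale) in each of the 13 samples, coloured by group; horizontal lines are group means. Dpy30 lies above the other 3 genes in every sample, and Rbbp5 and Ash2l change places between WT (0.574 and 0.347) and LKO liver (0.318 and 0.427).

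Tunicamycin against vehicle gave no call for any of the 4 genes in either genotype or over both, by edgeR or by DESeq2, and Dpy30 alone had an unadjusted p under 0.05, in LKO liver, as did 12.2% of all tested genes, and over both genotypes, as did 20.2%. In WT liver, where 0.363% of genes were called, Rbbp5 gave 0.05 ± 0.26 (interval -0.49 to 0.59), Ash2l -0.15 ± 0.24 (interval -0.66 to 0.36), Wdr5 -0.12 ± 0.22 (interval -0.58 to 0.35) and Dpy30 -0.25 ± 0.22 (interval -0.72 to 0.23) on the log2 scale. In LKO liver, where 0.0311% of genes were called, Rbbp5 gave 0.02 ± 0.25 (interval -0.52 to 0.55), Ash2l -0.19 ± 0.19 (interval -0.60 to 0.22) and Wdr5 0.08 ± 0.20 (interval -0.33 to 0.50). The edgeR adjusted p-values of these 7 values were between 0.660 and 0.993. Total count scaling moved the median of all tested genes from 0.01 to -0.18 in WT and from 0.005 to -0.04 in LKO, and the values of Rbbp5 moved with it, to -0.13 and -0.03.

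Dpy30 had the lowest fitted value under tunicamycin. In LKO liver it was at 5.03 ± 0.372 CPM (SD, n = 3) with vehicle and at 3.68 ± 0.912 CPM (SD, n = 4) after tunicamycin, and these groups did not overlap. Groups not overlapping with lower tunicamycin values were found for 6.55% of all tested genes. The log2 fold change was -0.42 ± 0.19 (interval -0.83 to -0.02), with an edgeR adjusted p of 0.391. Over both genotypes, where 4.32% of genes were called, Dpy30 gave -0.33 ± 0.15 (interval -0.65 to -0.02, edgeR adjusted p 0.209), and the other 3 genes gave values from -0.17 to 0.03. Comparisons of the same treatment or genotype here share samples, so values set side by side are not independent.

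Whether the effect of tunicamycin differed between genotypes was tested by the interaction. It was -0.04 ± 0.36 for Rbbp5 (interval -0.80 to 0.73), 0.20 ± 0.30 for Wdr5 (interval -0.43 to 0.82) and -0.18 ± 0.30 for Dpy30 (interval -0.80 to 0.45), and -0.04 ± 0.31 for Ash2l (interval -0.70 to 0.61), each with an edgeR adjusted p of 0.999. In this comparison 0% of genes were called, 474 genes had an unadjusted p under 0.05, and DESeq2 also called 0.

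WRAD works in complexes with its enzymes and their partners. Of the 18 genes for these in the list used, all 18 were tested and 0 were called in any of the 7 comparisons by edgeR. Among them 5 had an unadjusted p under 0.05 in at least 1 comparison, as did 40.9% of all tested genes. Over both treatments, LKO against WT, 12 had fitted values above 0 and 6 below, with a median of 0.02 against -0.004 for all tested genes. The catalytic subunits gave 0.08 for Kmt2a, 0.002 for Kmt2b, 0.02 for Kmt2c and 0.03 for Kmt2d, and -0.08 for Setd1a and -0.24 for Setd1b on the log2 scale. The extremes were Paxip1 at 0.10 (edgeR adjusted p 0.712) and Pagr1a at -0.52 ± 0.22 (edgeR adjusted p 0.224), whose products belong together to the KMT2C and KMT2D complexes.

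Genes that act on or read the same mark gave 1 call. None of the 7 H3K4 demethylase genes was called by edgeR in any comparison, and 2 had an unadjusted p under 0.05 in at least 1 (against the same 40.9% of all tested genes). In LKO against WT over both treatments 6 of the 7 were above 0, with a median of 0.19, and the extremes were Kdm2b at 0.68 ± 0.21 (edgeR adjusted p 0.0978) and Kdm5c at -0.12 (0.620). In the deposited FPKM, on the log2(FPKM + 1) scale, which understates the change of low genes, the value of Kdm2b was 0.027. With no pseudocount its mean FPKM was higher in LKO with vehicle, by less than the WT SD of 0.126, and nearly equal after tunicamycin. It was 0.192 in WT and 0.241 in LKO with vehicle, and 0.268 in WT and 0.262 in LKO after tunicamycin. Of 12 genes of the NSL and NURF complexes, other assemblies that hold WDR5 or DPY30, 10 were tested and 0 called by edgeR (3 at an unadjusted p under 0.05 in at least 1 comparison). In LKO against WT over both treatments 3 were above 0 and 7 below, with a median of -0.14. Their extremes were Ogt at 0.16 (edgeR adjusted p 0.465) and Kat8 at -0.23 (0.543). Mcrs1 and Smarca1 had at most 6 and 2 reads in any sample and were not tested.

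Of 12 readers of H3K4 methylation, all tested, 6 were above 0 and 6 below in LKO against WT over both treatments. Their median was -0.004, and Phf8 was called lower, as were 0.861% of all tested genes. In the list 3 genes had an unadjusted p under 0.05 in at least 1 of the 7 comparisons, as did 40.9% of all tested genes. Phf8, a histone demethylase that binds methylated H3K4 through its PHD finger, was at 7.59 ± 1.77 CPM in WT vehicle and 6.13 ± 1.52 in WT tunicamycin (SD, n = 3 each). It was at 4.79 ± 0.649 CPM in LKO vehicle (SD, n = 3) and 4.30 ± 0.558 in LKO tunicamycin (SD, n = 4). The log2 fold change was -0.58 ± 0.14 with an edgeR adjusted p of 0.0460, just under the threshold, and it passed in 8 of 21 alternative settings. Dido1, at the other end of the list, gave 0.44 ± 0.13 (edgeR adjusted p 0.0839).

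**Figure D5:**
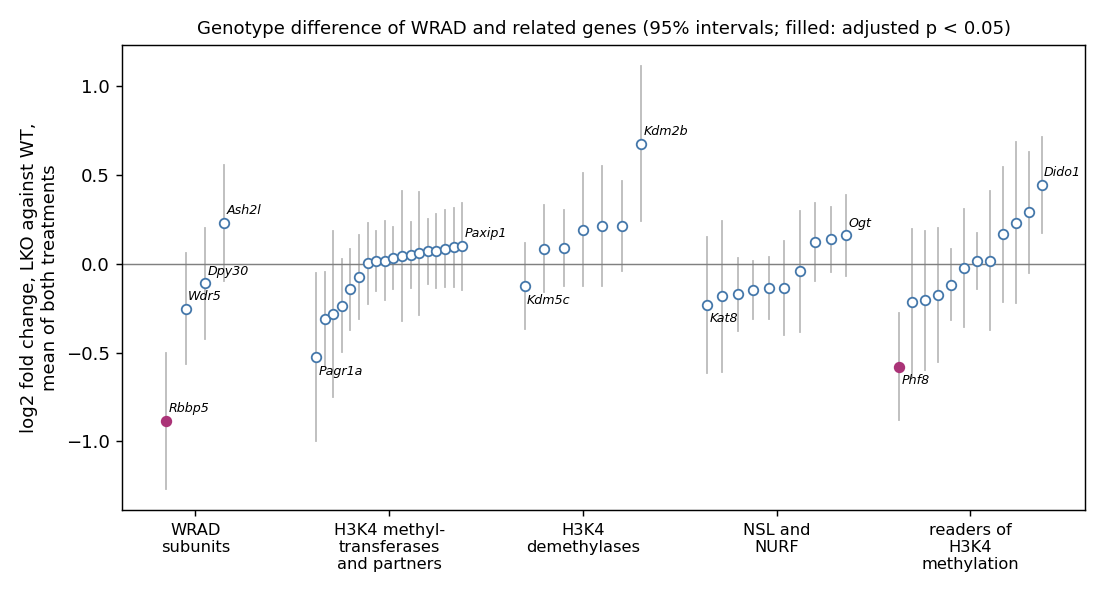
Log2 fold change, LKO against WT over both treatments (vertical axis), with 95% intervals for the 4 WRAD genes and 4 lists of related genes; filled points have an adjusted p under 0.05, and the extremes of each list are named. Rbbp5 (-0.89) and Phf8 (-0.58) are the 2 filled points, and the median of each list lies between -0.14 and 0.19.

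Across the 13 samples the 4 genes varied with little in common. Pearson's r between pairs of their log2 CPM ran from -0.18 to 0.39, the highest for Rbbp5 with Wdr5. These correlations are descriptions over samples that share groups, library scaling and few reads per gene. Among the 5997 or 5998 tested genes whose mean log2 CPM was 2 or more, the profiles most like that of Rbbp5 were those of Ptges3 (r = 0.867, n = 13), Tbc1d15 (0.846) and Arhgef26 (0.841). For Ash2l they were Ppap2b (0.761), Rhbdd2 (0.760) and Cox17 (0.760), for Wdr5 Kdm6a (0.785), Slc20a1 (0.760) and Mxi1 (0.747), and for Dpy30 Cct4 (0.828), Ddah1 (0.817) and Acads (0.807). Rbbp5 and Ash2l, with a mean log2 CPM of 1.99 and 1.97, were below that limit and could not be listed for another member. Wdr5 and Dpy30 could be, and neither was among the 3 nearest of another member.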

How the data were processed

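Libraries of liver RNA were processed with Trimmomatic, STAR and Cufflinks on the mm10 build, per the submitters' processing notes. Whole-read counts for each gene, deposited by the authors in STAR's layout, were read from the sense-strand column, which held 99.5 to 99.6% of stranded reads. The deposited FPKM values, from the authors, were read for the same libraries, and the annotation and filters behind them are not given in the sources used here. Counts were fitted with edgeR 4.0.16 in R 4.3.3 (TMM, filterByExpr, quasi-likelihood test) with 1 mean per group, 13 samples, 9 residual degrees of freedom and a common biological coefficient of variation of 0.155. A call needed an adjusted p under 0.05 (Benjamini-Hochberg, 9644 genes). The log2 CPM used a prior count of 2. Alternatives used DESeq2 1.42.0 and limma 3.58.1 on log2 FPKM with pseudocounts of 1 and 0.1. Sense reads without Rn45s numbered 1704479 to 3551398 per library, so each member rests on 18 to 67 reads per library. Counting error at this depth and the spread between samples both limit the precision. Scripts were tested on simulated data. The 4 members, the related-gene lists and the cell type markers were chosen with earlier results of these data known. Genes named were the members, list genes called in any comparison, the highest and lowest of each list in LKO against WT over both treatments, the 3 best-correlated genes per member, the 3 neighbours on either side of Rbbp5, and Rn45s. No column of per-sample values was left unused (0 columns).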

Additional observations from a re-analysis of the deposited data

Results flagged for a closer look

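Only LKO tunicamycin, with 4 samples, could be examined for a sample far from the rest of its group, and 12 quantities were examined there (CPM, FPKM and share of the 4 genes' reads, for each gene). Chance alone flags about 1 in 20 such groups. The share of Rbbp5 in the reads of the 4 genes was 13.97% in LKO tunicamycin 4, against 20.6, 21.8 and 21.7% in the other 3 samples. The share of Dpy30 was 16.4% in LKO tunicamycin 2, against 29.4, 27.4 and 27.2% in the others. Its gap over range was 0.831, again just past the cutoff, and Dpy30 CPM (0.811) and FPKM (0.543) did not pass there. Neither was examined for a cause.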

How the results depend on the processing

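Rbbp5 stayed lower in LKO than in WT liver, over both treatments, in every alternative fit, and passed the threshold in 19 of 23. It missed it with log2(FPKM + 1) (-0.26, limma adjusted p 0.0637, and 0.101 without a filter, also at -0.26) and with log2(FPKM + 0.1) (-0.70, limma adjusted p 0.0753), where 0 of the 4 genes were called. A pseudocount of 1 understates the change of genes as low as Rbbp5. With no pseudocount its mean FPKM in LKO liver was 55.3% of the WT mean. Leaving out 1 sample in turn gave -1.01 to -0.77, with 0 to 1 of the 4 called. After tunicamycin, Rbbp5 was called with no filter on low counts (-0.91, edgeR adjusted p 0.0333; 1 of 4 called). The cause was not tested.

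Values that passed no threshold changed sign in places. For tunicamycin against vehicle, Rbbp5 in WT gave -0.13 (total count scaling), -0.043, -0.098 and -0.043 (FPKM + 1, FPKM + 0.1 and FPKM + 1 unfiltered), and -0.12 to 0.22 without 1 sample. In LKO it gave -0.031 (total count scaling) and -0.22 to 0.27 without 1 sample, and over both genotypes -0.082 (total count scaling), then -0.020, -0.033 and -0.020 by FPKM, and -0.087 to 0.15. Wdr5 in LKO gave -0.041, -0.090 and -0.041 by FPKM, -0.015 with the replicate block, and -0.059 to 0.25 without 1 sample. Without 1 sample Wdr5 gave -0.27 to 0.035 in WT and -0.094 to 0.062 over both genotypes, and Dpy30 in LKO against WT with vehicle gave -0.15 to 0.13. The interaction of Rbbp5 gave 0.10 (total count scaling), 0.047, 0.13 and 0.047 (FPKM), 0.11 (replicate block) and -0.27 to 0.24 (without 1 sample). That of Ash2l gave 0.10 (total count scaling), 0.060 (unfiltered FPKM) and -0.18 to 0.13, and that of Dpy30 0.10, 0.064 and 0.10 (FPKM).

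The number of genes called moved far more. For LKO against WT with vehicle it was 4, and 12 with 14 libraries, 8 with total count scaling, 20 with DESeq2, 84 unfiltered, 0 by each FPKM fit, 25 with only the 2 groups and 0 to 17 without 1 sample. After tunicamycin it was 83, and 164, 138 and 261 with total count scaling, DESeq2 and no filter, 54, 51 and 7 by FPKM, 27 with only the 2 groups and 0 to 183 without 1 sample. Over both treatments it was 213, and 514 unfiltered, 102, 103 and 43 by FPKM and 62 to 413 without 1 sample. For tunicamycin in WT it was 35, and 56 with 14 libraries, 148 with total count scaling, 154 with DESeq2, 289 unfiltered, 53 unstranded, 2, 3 and 0 by FPKM, 7 with only the 2 groups and 0 to 615 without 1 sample. In LKO it was 3, and 5 with 14 libraries, 47 with DESeq2, 153 unfiltered, 0, 0 and 1 by FPKM and 0 to 67 without 1 sample. Over both genotypes it was 417, and 668 with 14 libraries, 810 with total count scaling, 764 unfiltered, 276 (FPKM + 0.1), 19 (FPKM unfiltered) and 59 to 1085 without 1 sample. For the interaction it was 0, and 0 to 2 without 1 sample. Total count scaling moved the share of calls that were higher from 36.1 to 86.6% (LKO against WT, tunicamycin), 61.0 to 87.0% (both treatments), 80.0 to 22.3% (tunicamycin, WT) and 50.4 to 18.9% (tunicamycin, both genotypes). It moved the median of all tested genes furthest for tunicamycin in WT, from 0.01 to -0.18.

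Replicate numbers did not pair the samples: 18 same-numbered pairs had correlations of deviations from -0.12 to 0.14, and 3 passed 0.1. The replicate block gave 0 calls with vehicle, 32 after tunicamycin, 167 over both treatments, and 38 and 5 for tunicamycin in WT and LKO. Leaving out each sample in turn kept Rbbp5's share of the 4 genes' reads lower in LKO by -11.3 to -9.11 percentage points, and that of Ash2l higher by 5.96 to 8.29. Ash2l had no value in the 2 filtered FPKM fits. Phf8 passed in 8 of 21 alternatives, and missed the threshold in 10 of 13 fits without 1 sample. Depth limits each member to 18 to 67 reads per library.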
